A study of Rattus norvegicus with 3 samples.

Results

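Tac1 (ENSRNOG00000007374) and Gcg (ENSRNOG00000005498) are 2 of the 32623 genes in the count matrices of the rat cochlear duct, and both encode precursors of peptide hormones. They were chosen from measured values: in an earlier analysis of the same libraries each was a leading gene of a cell cluster, by the log2 ratio of its level against all other cells. A level is given in CPM, the summed unique molecular identifiers (UMIs, each tagging 1 captured transcript) of a gene scaled to a total of 1000000. Because of that choice, the levels of both genes among clusters are given as a description. Transcripts of single cells were sequenced from the dissociated cochlear duct of untreated Sprague-Dawley rats on the postnatal days 1, 7 and 14, called P1, P7 and P14. At each stage 40 rats were pooled and 1 library was made, so animals cannot be told apart. With 1 library per stage no difference could be tested, and the 95% intervals given here cover counting error only, not the spread between animals or preparations. A barcode counted as a cell if it had over 500 but under 5000 detected genes, 500 or more UMIs, and under 25% of its UMIs from mitochondrial genes. This left 12779 cells at P1, 12581 at P7 and 5281 at P14, and 21908 genes had a UMI in them.

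Tac1 encodes preprotachykinin A, from which substance P and neurokinin A are cut, and it is best known from sensory neurons, gut neurons and brain. Gcg encodes proglucagon, which pancreatic alpha cells turn mainly into glucagon and intestinal L cells mainly into the glucagon-like peptides. Both precursors enter the secretory pathway, are cut by prohormone convertases, trimmed by carboxypeptidases and, for some products, amidated, and the released peptides act on G protein-coupled receptors until extracellular peptidases break them down.

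The P14 library was shallower, with a median of 1614 UMIs per cell against 6565 at P1 and 6878 at P7. Shares of cells were therefore also read after each cell was thinned at random to 1000 UMIs, which left out 37, 193 and 735 cells with fewer UMIs. Of the kept barcodes, 53 were shared by the P1 and P7 libraries, 16 by P1 and P14 and 19 by P7 and P14. Scrublet, a doublet caller, marked 4.87% of cells at P1 and 6.16% at P7, and it marked only 0.0379% at P14, where it did not work. The labels name the sampled cells as those of the greater epithelial ridge, but the cluster that carried the epithelial markers held 579 of the 30641 kept cells, and only 21 cells were hair cell-like.

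Tac1 had about the same level at P1 and P7 and was nearly absent from the P14 library. The 2 cell clusters with the highest Tac1 levels, described below, held only 2 cells and 1 cell at P14. It was measured at 74.2 CPM at P1 (95% interval 72.5 to 75.9, 7274 UMIs), 76.7 CPM at P7 (75.0 to 78.5, 7142 UMIs) and 1.72 CPM at P14 (1.05 to 2.65, 20 UMIs). At least 1 Tac1 UMI was found in 16.4% of cells at P1, 17.3% at P7 and 0.227% at P14, and after thinning in 4.83%, 5.08% and 0.110%. The first pair of stages lay close together and the last stood far below both on either scale. The log2 ratio of P7 to P1, with 10 CPM added to both levels, was 0.04 (-0.02 to 0.10), and that of P14 to P1 was -2.85 (-2.96 to -2.71), a level 43.2-fold lower without the added CPM.

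Gcg was low at P1, high at P7 and low again at P14. It was measured at 9.64 CPM at P1 (9.04 to 10.3, 945 UMIs), 266 CPM at P7 (262 to 269, 24727 UMIs) and 20.3 CPM at P14 (17.8 to 23.0, 236 UMIs). The share of cells with a Gcg UMI was 1.75% at P1, 10.2% at P7 and 1.42% at P14, and after thinning 0.581%, 4.54% and 1.34%. The log2 ratio of P7 to P1 was 3.81 (3.75 to 3.87), a 27.6-fold higher level, and it ranked 1 of the 7750 genes that reached 10 CPM in the kept cells as a whole. The log2 ratio of P14 to P7 was -3.19 (-3.33 to -3.04), and that of P14 to P1 was 0.62 (0.45 to 0.80). Cluster 12, the cluster with the highest Gcg level, held 0 cells at P14. Without this cluster the ratio of P7 to P1 was 2.01 and that of P14 to P7 was -1.18. Without barcodes found in more than 1 library, the ratios of P7 to P1 were 3.82 for Gcg and 0.04 for Tac1. Over the same genes the median log2 ratio was 0.09 for P7 against P1 and 0.02 for P14 against P7, and 3.32% of them were past 2-fold higher at P7. The composition of the libraries differed between stages, so a change in the number of cells that carry a gene and a change in its level per cell cannot be told apart from these sums alone.

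**Figure D1:**
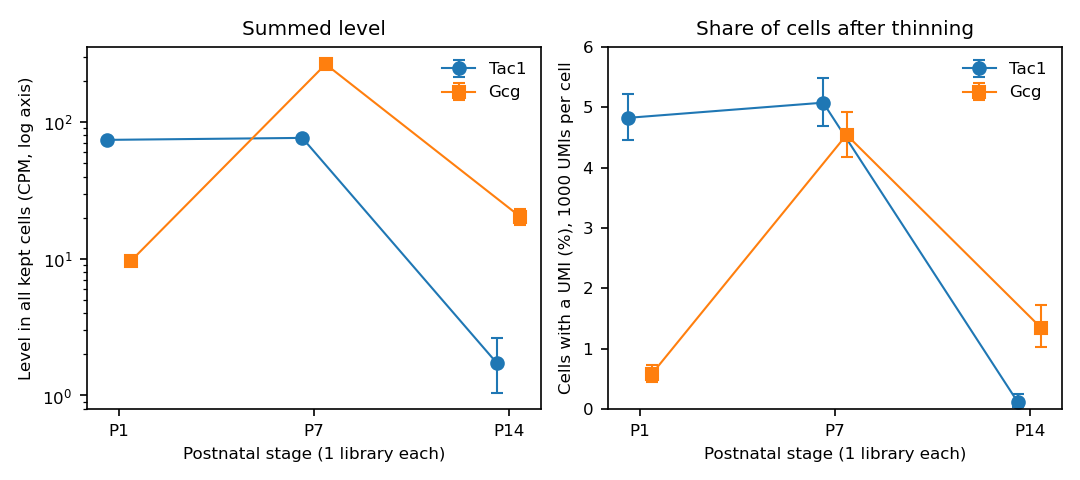
Levels of Tac1 (circles) and Gcg (squares) at each stage, as CPM of summed UMIs on a log axis (left) and as the percent of cells with a UMI after thinning to 1000 UMIs (right). Bars are 95% intervals for counting error in 1 library per stage. Tac1 is at 76.7 CPM at P7 and 1.72 at P14, and Gcg is highest at P7, at 266 CPM.

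The cells were placed in 28 clusters, numbered from 0 by falling size, with Tac1 and Gcg themselves left out of the genes that formed them. Names such as glia-like rest on lists of marker genes. By these lists 13 clusters were named, and the other 15 go by their leading genes. Levels were read in the 49 combinations of cluster and stage with at least 50 cells.

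Tac1 was highest in cluster 1, led by Plagl1, Col6a1 and Col8a1, and in cluster 2, led by Dlx5, Sfrp4 and Gdf10. In cluster 1 its level was 240 CPM at P1 (233 to 247, 2417 cells) and 248 CPM at P7 (221 to 277, 161 cells). In cluster 2 it was 175 CPM at P1 (152 to 202, 154 cells) and 218 CPM at P7 (211 to 225, 2346 cells). The interval of cluster 1 at P7 overlapped those of cluster 1 at P1 and cluster 2 at P7, which did not overlap each other, and cluster 2 at P1 lay below all 3. Cluster 1 held 58.0% of all Tac1 UMIs at P1, and cluster 2 held 53.8% at P7, so most of the transcript lay in a different cluster at each of these stages. At P14 cluster 1 held 2 cells and cluster 2 held 1, so the level of Tac1 could not be followed in them.

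Next in order came the fibroblast-like cluster 7, led by Aard, Ramp3 and Dcn, with 104 CPM at P7 (98.0 to 110), and the dividing cell-like cluster 10 with 98.4 CPM at P1 (91.4 to 106) and 91.2 CPM at P7 (82.5 to 101). These neighbours did not differ beyond their counting intervals. The cochlear epithelium-like cluster 17 had 42.8 CPM at P1 (34.8 to 52.0) and 50.4 CPM at P7 (40.7 to 61.9), and 0 UMIs in 79 cells at P14, which allows a level of up to 11.5 CPM. In all glia-like clusters the level was 3.09 CPM at P1 and 2.75 CPM at P7, and the share of cells with a UMI was 1.08% and 1.40% (median 4009 and 4473 UMIs per cell). After thinning, the glial share was 0.0675% at P1 and 0.372% at P7, against 15.5% in cluster 1 at P1 (median 6834 UMIs) and 13.4% in cluster 2 at P7 (median 7096.5 UMIs). The P14 share of Tac1 over all cells, at 0.110%, lay between these glial shares, but they come from other libraries with far more Tac1. At P14 itself 0 of 323 thinned glia-like cells had a Tac1 UMI, with an interval of up to 1.14%. Whether the P14 UMIs are background was not tested.

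The neuron-like cluster 22, of which 288 of 295 cells came from P1, had 23.3 CPM of Tac1 at that stage (19.6 to 27.5). A single cell carried 126 of the 141 UMIs, the highest count of Tac1 in any cell, and without the 3 highest cells the level was 2.00 CPM. In the 21 hair cell-like cells, all from P1, there was 1 Tac1 UMI and 0 Gcg UMIs among 328267, so neither gene could be measured there.

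Gcg was concentrated in cluster 12, led by Car3, Cnmd and Cytl1, a carbonic anhydrase gene and a pair of genes known from cartilage. Among its 10 leading genes were 2 markers of cartilage (Cnmd, Cytl1) and 2 of cochlear mesenchyme (Car3, Otos), so it was given no name. The level of Gcg there was 286 CPM at P1 (253 to 323, 114 cells) and 2624 CPM at P7 (2587 to 2661, 780 cells), and a Gcg UMI was found in 34.2% and 59.2% of these cells. After thinning the shares were 13.2% and 40.1%. The cluster held 27.6% of all Gcg UMIs at P1 and 79.8% at P7. Within it the level was 9.17-fold higher at P7 than at P1 (log2 ratio 3.15, 2.96 to 3.35). At P1 this level leaned on few cells: without the 3 highest cells it was 153 CPM at P1 and 2490.3 CPM at P7.

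Outside cluster 12 the next levels of Gcg at P7 were 375 CPM in cluster 16 (333 to 421), led by Lyz2 and Tyrobp, 144 CPM in the dividing cell-like cluster 10 (133 to 156), 125 CPM in the fibroblast-like cluster 7 (119 to 132) and 110 CPM in cluster 14 (102 to 120). The value of cluster 16 rested on 3 cells: 277 of its 286 UMIs were in them, 2 of the 3 were marked by Scrublet, and without them the level was 12.5 CPM. In the dividing cell-like cluster 10 the level without the 3 highest cells was 61.4 CPM, in cluster 7 it was 86.5 CPM and in cluster 14 it was 63.6 CPM. Scrublet marked 86.1% of the cells of cluster 14.

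The Gcg level was higher at P7 than at P1 in each of the 18 clusters with enough cells at both stages, and the counting interval of the log2 ratio was above 0 in all 18. Of these, 8 clusters had 0 Gcg UMIs at P1. In the glia-like clusters together Gcg went from 0.141 CPM (1 UMI) at P1 to 7.68 CPM (6.31 to 9.26) at P7, with a UMI in 3.75% of cells and never more than 2 UMIs in a cell. In the macrophage-like cluster 24 it went from 0 UMIs, which allows up to 3.41 CPM, to 8 UMIs, 1 in each of 8 of 89 cells (median 6474 UMIs). The thinned share of glia-like cells at P7, 1.08% (0.724 to 1.55), is used as a reference for other shares. Whether the glial Gcg UMIs are background was not tested. In macrophage-like cells the thinned share was 1 of 89, 1.12%, with an interval of 0.0284 to 6.10 that is too wide for a reference. The epithelium-like share of 1.04% at P7 (0.126 to 3.69, median 6680 UMIs) did not stand above the glial one, while the 4.27% of cluster 7 (3.35 to 5.36) and the 40.1% of cluster 12 did. For Tac1 the log2 ratio of P7 to P1 was above 0 beyond counting error in 2 of 18 clusters and below in 1, with a median of 0.05.

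**Figure D2:**
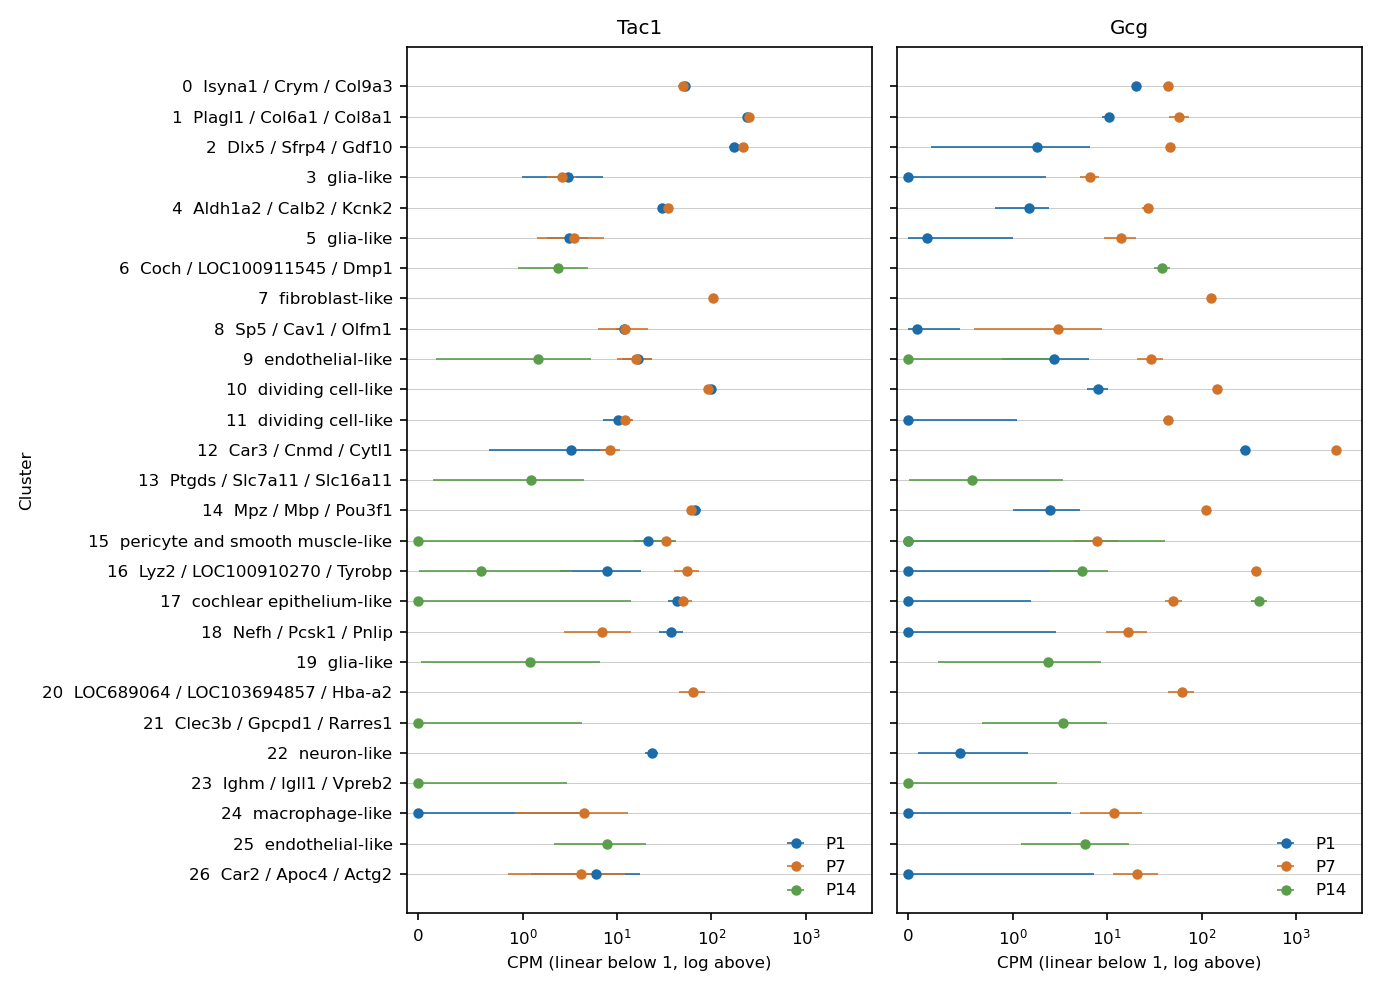
Level of Tac1 (left) and Gcg (right) in CPM, on an axis that is linear below 1 and logarithmic above, for each cluster (rows) and stage (P1 blue, P7 orange, P14 green) with at least 50 cells. Bars are 95% Poisson intervals of the summed UMIs. Tac1 is at 175 to 248 CPM in clusters 1 and 2, and Gcg reaches 2624 CPM in cluster 12 at P7 and lies to the right of its P1 point in every cluster measured at both stages.

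The clusters with the highest levels were not epithelial by their markers. The 9 epithelial markers had a summed level of 29.7 CPM in cluster 1, 74.3 in cluster 2 and 61.4 in cluster 12, against 5409 CPM in the epithelium-like cluster 17. None of these markers was at 0 in the 3 clusters. The 9 cochlear mesenchyme markers, led by Otor, summed to 6556, 12290 and 31328 CPM in clusters 1, 2 and 12, and the 8 cartilage markers, led by Col9a1, to 4328, 10216 and 11805 CPM, with 2, 1 and 0 of the cartilage markers at 0. The 7 fibroblast markers summed to 3028 and 2787 CPM in the Tac1 clusters 1 and 2 and to 250.1 CPM in the Gcg cluster 12. In cluster 17 the mesenchyme markers summed to 4468 CPM, the cartilage markers to 3517 and the fibroblast markers to 500.8. The mesenchyme and cartilage sums thus set cluster 1 apart from cluster 17 far less than the epithelial sum did. Single genes weighed heavily: Otor had 20040 CPM in cluster 12 and Col9a1 3650 CPM in cluster 1.

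At P14 the 236 Gcg UMIs lay mostly in cluster 6, led by Coch, the gene of the extracellular protein cochlin, and in cluster 17. Cluster 6 held 113 UMIs at 38.4 CPM (31.7 to 46.2), with a UMI in 52 of 1732 cells (median 1478 UMIs). Cluster 17 held 105 UMIs at 404 CPM (330.4 to 489), in 14 of its 79 cells at this stage. Together they made up 92.4% of the P14 UMIs. The glia-like cells of P14 had 2 Gcg UMIs in 356 cells (median 1908.5 UMIs).

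The 14 cells with Gcg in the epithelium-like cluster at P14 did not carry the markers that gave the cluster its name. All 9 epithelial markers were at 0 UMIs in them, which allows up to 103 CPM for each, while Epcam was at 1035 CPM (908 to 1175) in the 65 cells without Gcg and was found in 48 of them. Otos, the gene of otospiralin, known from fibrocytes of the inner ear, was found in all 14 cells and took 310280 CPM of their UMIs, against 17990 CPM in the other 65 (median depth 1821.5 against 3183 UMIs). Car3, a leading gene of cluster 12, was at 1378 CPM in the 14 cells and 121 CPM in the rest. At P7 the 12 Gcg cells of cluster 17 were deep, with a median of 16444 UMIs against 6482 in the 208 others. Of these 12 cells, 8 carried Epcam, and 72 of their 92 Gcg UMIs lay in 2 cells. Of the cochlear mesenchyme markers, Otor, Pou3f4, Tbx18, Car3 and Crym were higher in these 12 cells than in the others. Otor was at 5562 against 838 CPM, Pou3f4 at 256 against 39.5 and Car3 at 228 against 3.65. Otos went the other way, at 16.7 (3 UMIs) against 115 CPM. Emilin2, Aldh1a2 and Coch had 0 UMIs in the 12 cells, which allows 16.7 CPM. Of the epithelial markers, Epcam, Krt8 and Epyc were lower beyond their counting intervals, Epyc at 879 against 3299 CPM. Tectb (1596 against 1523 CPM), Otoa (200 against 175) and Cdh1 (122 against 120) were not lower.

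Within cluster 12 at P7, Gcg varied widely between cells. After thinning, 466 of 778 cells had no Gcg UMI, 82 had 1, 163 had 2 to 9 and 67 had 10 or more, with a highest value of 34 in 1000. The variance of the thinned count was 9.16 times its mean, which ranked 7 among 7322 genes in these cells, whose median ratio was 0.987. These genes were not matched for mean, with which the ratio rises, so the rank is not read as a result. Without thinning, the highest cell held 496 Gcg UMIs, 3.31% of all its 14974 UMIs. Over all stages, 403 cells with 10 or more Gcg UMIs carried 90.8% of all Gcg UMIs, and 276 of them were in cluster 12. The 74 cells with 100 or more, each from P7, carried 48.8%, and 67 of them were in cluster 12.

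The cells with 10 or more Gcg UMIs outside cluster 12 were of several kinds. At P7 there were 29 in the fibroblast-like cluster 7, of which Scrublet marked 0, and 14 in the dividing cell-like cluster 10, of which it marked 4. It marked 10 of 15 such cells in cluster 2, 12 of 17 in cluster 14 and 3 of 4 in cluster 11, but only 1 of 269 in cluster 12. At P1, 11 such cells were in cluster 0, led by Isyna1, Crym and Col9a3, and 7 in cluster 12.

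Tac1 had a lower mean per cell in its clusters, and few cells with high counts. The mean was 0.239 UMIs per thinned cell in cluster 1 at P1 and 0.198 in cluster 2 at P7, against 2.32 for Gcg in cluster 12 at P7. The ratio of variance to mean rises with the mean, so the ratios of the genes are not compared with each other. For the same reason the ranks of Tac1 below are not read as a result. After thinning, 2040 of 2414 cells of cluster 1 at P1 had no Tac1 UMI, 260 had 1, 114 had 2 to 9 and 0 had 10 or more, and the variance was 2.06 times the mean (rank 31 of 6926 genes). In cluster 2 at P7 this ratio was 1.82 (rank 46 of 7425 genes). Over all stages 290 cells with 10 or more Tac1 UMIs carried 33.3% of its UMIs. Of these, 99 lay in cluster 1 at P1 and 92 in cluster 2 at P7, and Scrublet marked 2 in each.

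**Figure D3:**
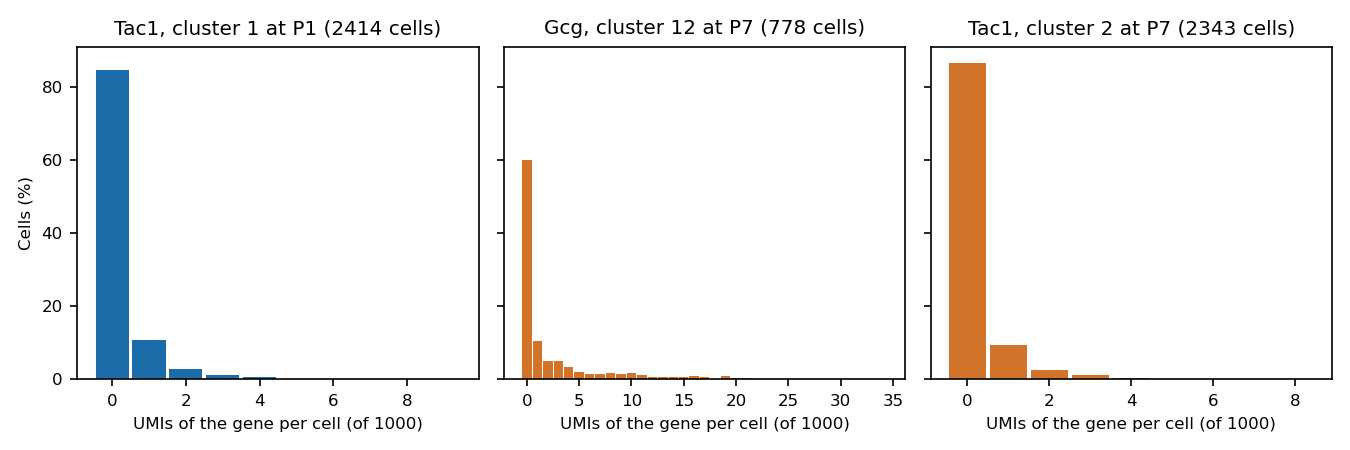
Percent of cells (vertical axis) by the number of UMIs of the gene in a cell thinned to 1000 UMIs (horizontal axis), for Tac1 in cluster 1 at P1, Gcg in cluster 12 at P7 and Tac1 in cluster 2 at P7. Gcg has a tail up to 34 UMIs, with 67 of 778 cells at 10 or more, while no Tac1 cell reaches 10, at a mean of 0.239 and 0.198 UMIs against 2.32 for Gcg.

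Few cells had both Tac1 and Gcg. Set against the separate shares, the P1 and P7 intervals given below overlapped, with and without thinning. At P1, after thinning, 4 of 12742 cells had both, where the product of the shares gives 3.57 cells, and the log2 odds ratio was 0.33 (-1.05 to 1.71). Without thinning 41 P1 cells had both against 36.5 (0.22, -0.27 to 0.71). At P7, after thinning, 14 of 12388 cells had both, where the product of the separate shares gives 28.6 cells, and the log2 odds ratio was -1.06 (-1.82 to -0.30). In cluster 12 none of 778 cells had both, where the product of the shares gives 2.41 cells, while 6 had only Tac1 and 312 only Gcg. Without thinning 21 of 780 cells of this cluster had both against 24.3, at a log2 odds ratio of -0.50 (-1.39 to 0.40). After thinning, the fibroblast-like cluster 7 had the largest number of cells with both, 7 of 1663, and its log2 odds ratio was 0.63 (-0.50 to 1.75). Without thinning the ratio over all P7 cells was -0.22 (-0.45 to 0.01), so the interval then included 0. Over the 49 cluster and stage combinations the Pearson correlation of the 2 genes was 0.22, a description of points that share libraries.

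The genes found with Tac1 were read by comparing Tac1-positive with Tac1-negative cells of the same cluster and stage, after thinning. In cluster 1 at P1 (374 positive and 2040 negative cells), 0.188% of 6925 genes were past 2-fold higher in positive cells and 1.07% past 2-fold lower. Most of these were low genes: the 87 past 2-fold became 9 among genes with at least 50 CPM and 15 without thinning, so the count itself is not read as a result. The high end was read among genes found in at least 25% of the positive cells, so a gene could enter through the cells where it is high, and the order is partly set by this limit. The highest ratio there was that of Mme, the gene of neprilysin, a membrane peptidase that cleaves substance P. Mme was at 653 CPM in positive and 316 CPM in negative cells (log2 ratio 1.02, 0.73 to 1.31) and was found in 41.2% and 22.2% of them. Spp1, which encodes osteopontin, followed at 1387 against 761 CPM (0.86, 0.66 to 1.05). The other 8 of the first 10 were Efemp1, Col9a1, Col2a1, Igfbp3, Lman1, Vcan, Col11a1 and Peg3, with log2 ratios from 0.69 down to 0.45, among them the collagens and the versican gene Vcan. At the low end stood Apod, the gene of apolipoprotein D, at 573 against 1247 CPM (-1.11, -1.36 to -0.86), then Csrp2, Col6a2, Cthrc1 and Col3a1. The low end was read among genes found in at least 25% of the negative cells, here and in the comparisons that follow.

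The same comparison in cluster 2 at P7 was added after the values of the first had been seen. With 315 positive and 2028 negative cells, 0.296% of 7424 genes were past 2-fold higher and 1.8% past 2-fold lower. Igfbp3 (0.99, 0.65 to 1.33) and Spp1 (0.67, 0.40 to 0.93) were among the first 10 here too, and Mme had a log2 ratio of 0.61. Dcn, which encodes the proteoglycan decorin, was at 2753 against 1669 CPM (0.72, 0.57 to 0.86). The highest ratio was that of LOC103694857 (1.34, 1.11 to 1.56), a leading gene of cluster 20 beside the haemoglobin gene Hba-a2, which was found in 27.0% of positive and 25.6% of negative cells. Col11a2, a cartilage collagen, was lowest at 203 against 440 CPM (-1.08, -1.52 to -0.64).

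The genes found with Gcg were read in cluster 12 at P7 (312 positive and 466 negative cells), where 1.69% of 7321 genes were past 2-fold higher and 2.58% past 2-fold lower. Here too the 313 genes became 37 with at least 50 CPM and 36 without thinning. Mia, which encodes a small secreted protein of cartilage, was at 554 CPM in positive and 182 CPM in negative cells (1.55, 1.04 to 2.07). Sncg, the gene of gamma-synuclein, was at 496 against 167 CPM (1.51, 0.98 to 2.06). Dpp4, the peptidase that inactivates glucagon-like peptides, followed at 316 against 129 CPM (1.23, 0.60 to 1.87). These 3 genes were found in 15.0%, 11.2% and 11.4% of the negative cells, so they entered through the positive cells. Eno1, Cytl1, Serpinf1, Apod, Ppp1r1b, Igfbp5 and Tsen15 were next, with log2 ratios from 1.03 down to 0.75. Apod, lowest among the Tac1 cells of cluster 1, was thus at 5206 against 2880 CPM in Gcg cells of cluster 12. Among the lowest ratios were those of Col3a1 (-0.93, -1.41 to -0.45), Ifitm3, Htra1 and Cirbp. Positive cells were deeper before thinning, with a median of 10247 UMIs against 8886.5, and the part of this in the ratios was not tested.

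**Figure D4:**
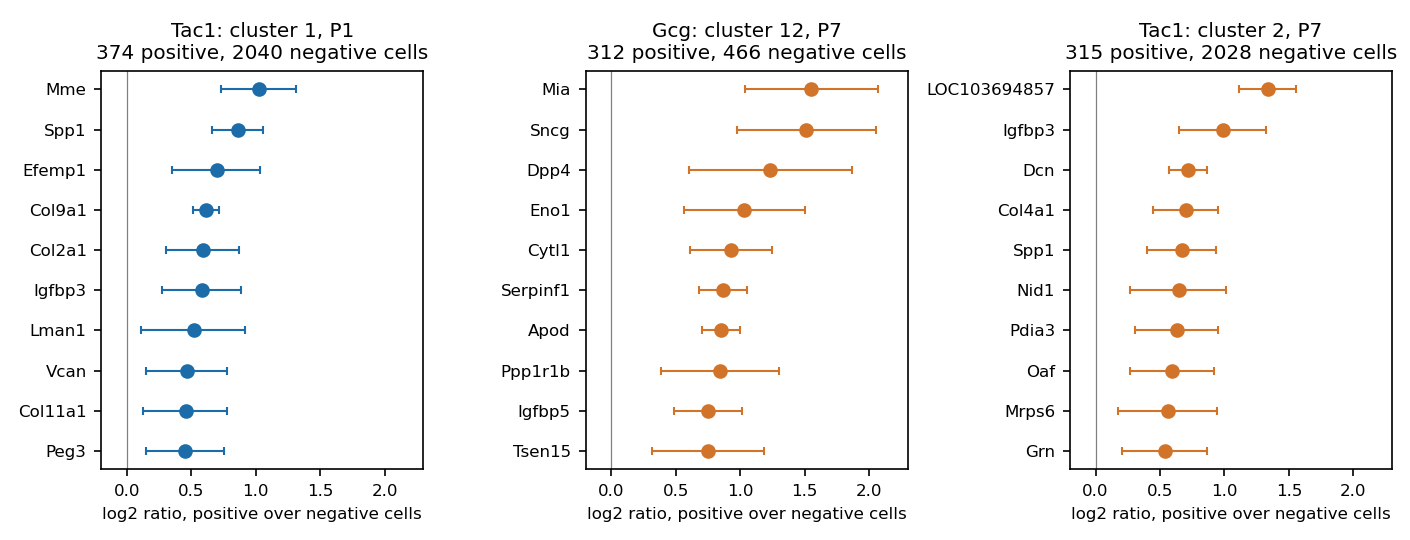
The 10 genes with the highest log2 ratio of CPM (horizontal axis, 10 CPM added) in cells with against cells without the hormone gene, for Tac1 in cluster 1 at P1, Gcg in cluster 12 at P7 and Tac1 in cluster 2 at P7. Bars are 95% intervals for counting error, and only genes found in at least 25% of the positive cells are shown. Mme leads with Tac1 at 1.02 in cluster 1, and Mia, Sncg and Dpp4 lead with Gcg at 1.55, 1.51 and 1.23.

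Dpp4 and Gcg are neighbours in the rat RefSeq gene table, and on the other side of Gcg lies Fap, a related peptidase gene known from activated fibroblasts. Both had their highest levels in cluster 12. Dpp4 was at 207 CPM there at P1 (179 to 239) and 198 CPM at P7, and Fap at 42.8 CPM (30.4 to 58.5) and 28.7 CPM. Their levels in cluster 12 were thus no higher at P7, where that of Gcg was. Before thinning, Fap was at 33.9 CPM in Gcg-positive and 20.0 CPM in Gcg-negative cells of this cluster. In the Coch-led cluster 6 at P14, a comparison added after the values were seen, Dpp4 was at 148 CPM (81.0 to 249, 14 UMIs) in the 52 cells with Gcg and 44.3 CPM (36.9 to 52.7) in the 1680 without. Otos was at 9101 against 1263 CPM there and Coch at 25196 against 18161 CPM. Car3 and Otor went the other way, at 31.7 CPM (6.55 to 92.8, 3 UMIs) against 224 CPM and at 317 against 953 CPM. In the 14 Gcg cells of cluster 17 at P14 no Dpp4 UMI was found, which allows up to 103 CPM. The neighbours of Tac1, Sdhaf3 and Asns, were at 0.725 and 9.92 CPM over all cells and highest in other clusters than Tac1.

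Over the 49 combinations of cluster and stage, the genes most like Tac1 in level were Colec11, a collectin gene, with a Pearson correlation of 0.87, and Lrrc17 with 0.83. Gpc3, B3gat2, Sertad4, Nell1, Mesd, B4galt7, Ssr2 and Edn3 followed, down to 0.77. Edn3, the endothelin 3 precursor gene, was highest in the fibroblast-like cluster 7 at P7 at 246 CPM. The gene most like Gcg was Car3 (0.87), then Rbpjl (0.79), Ccn4, Col11a2, Abcg5, Sec22b, Tsen15, Mrps6, Siah2 and Dpp4 (0.68). Of these 10 genes, 8 had their highest level in cluster 12. These correlations are descriptions: the points share 3 libraries, and cluster 12 weighs heavily on those of Gcg.

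Receptor genes for the peptides of Tac1 and Gcg were at or near 0. Tacr1, the preferred receptor of substance P, had 2 UMIs in all kept cells, and Tacr2, that of neurokinin A, had 9. Tacr3, the preferred receptor of neurokinin B, had 887 UMIs and was highest in cluster 26, led by Car2, Apoc4 and Actg2, at 181 CPM at P7 (151 to 215) and 69.3 CPM at P1. Tac3, which encodes neurokinin B, had 146 UMIs in all and Tac4 had 40. The glucagon receptor gene Gcgr had 120 UMIs and was highest in the neuron-like cluster at P1, at 4.13 CPM (2.67 to 6.09). Glp1r had 0 UMIs, which allows 0.0148 CPM over all kept cells, and Glp2r had 3. No receptor gene of either family reached 10 CPM over all cells. Of the other glucagon family ligands, Adcyap1 had the most UMIs, 551, and Gip the fewest, 4. Vipr1 was not analysed here.

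The convertase genes of neuroendocrine cells, Pcsk1 and Pcsk2, were low in clusters 12 and 1. Pcsk1 had 0.356 CPM in cluster 12 against 15.5 in all other cells, and was highest in cluster 18, led by Nefh and Pcsk1, at 178 CPM at P1 (155 to 202). Pcsk2 had 0 UMIs in cluster 12 at P7, which allows 0.399 CPM, and was highest in neuron-like cells at 35.2 CPM. Cluster 1 had 0.266 CPM of Pcsk1 and 1.81 of Pcsk2. In cluster 2 at P7 Pcsk1 was at 0.568 CPM, while Pcsk2 was at 4.43 CPM (3.50 to 5.52), above its 2.69 CPM over all cells. Before thinning, Pcsk2 there was at 6.76 CPM (5.04 to 8.89, 51 UMIs) in Tac1-positive and 2.68 CPM (1.77 to 3.90, 27 UMIs) in Tac1-negative cells. Furin, a convertase of the general secretory pathway, reached 73.7 CPM in cluster 12 and 70.2 in cluster 1, while the cells outside each had 70.0 and 70.1 CPM. The related Pcsk5 had 26.1 CPM in cluster 1 and 15.1 in cluster 12, and Pcsk6 had 32.3 and 30.4.

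The later steps of processing were represented in both clusters. Cpe, the carboxypeptidase E gene, had 301 CPM in cluster 12 and 127 in cluster 1, below the 352 and 373 CPM of the cells outside them. Pam, which amidates peptides such as substance P, had 114 CPM in cluster 1 and 63.7 in cluster 12. Cpz, a carboxypeptidase of the matrix, had 271 CPM in cluster 12, 41.4 elsewhere and 6.37 in cluster 1. Of 14 processing genes 11 reached 10 CPM, and 2 of them were past 2-fold higher at P7 than at P1 (Cpz, log2 ratio 2.01, and Qpct, 1.04) and 1 lower (Scg5, -1.73), beside 3.32% and 1.99% of all genes. Against P7, 2 were higher at P14 (Pam, 1.39, and Scg5, 1.15) and 0 lower, beside 8.03% and 5.34% of all genes. The median log2 ratio of the 11 was -0.01 for P7 against P1, where that of all genes was 0.09.

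Peptidases differed between the clusters of the hormone genes. Mme was at 356 CPM in cluster 1 against 95.5 CPM in all other cells, was highest in cluster 2 at P1 at 579 CPM (535 to 625), and was at 14.6 CPM in cluster 12. Dpp4 had the opposite order, with 199 CPM in cluster 12 and 11.2 in cluster 1. Of 8 peptidase genes 6 reached 10 CPM. None of the 6 was past 2-fold at P7 against P1, and at P14 against P7 Enpep was higher (1.33) and Mme lower (-1.04), beside 8.03% and 5.34% of all genes.

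Granule proteins of neuroendocrine cells were lower in both clusters than in the cells outside them. Chga had 1.86 CPM in cluster 1, 0.119 in cluster 12 and 352 in the neuron-like cluster at P1. For Chgb these levels were 2.28, 0.474 and 369 CPM. Scg3 had 14.0 CPM in cluster 1 and 22.3 in cluster 12, against 90.9 and 86.4 CPM in the cells outside them. Of 5 such genes 3 reached 10 CPM, and all 3 were past 2-fold lower at P7 than at P1 (Chga -1.70, Chgb -1.77 and Scg3 -1.11), beside 1.99% of all genes. The neuron-like cluster moved with the first pair: 288 of its 295 cells came from P1, and its part in these ratios was not tested. Scg3 was highest in cluster 8, led by Sp5, Cav1 and Olfm1, at 571 CPM at P1.

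**Figure D5:**
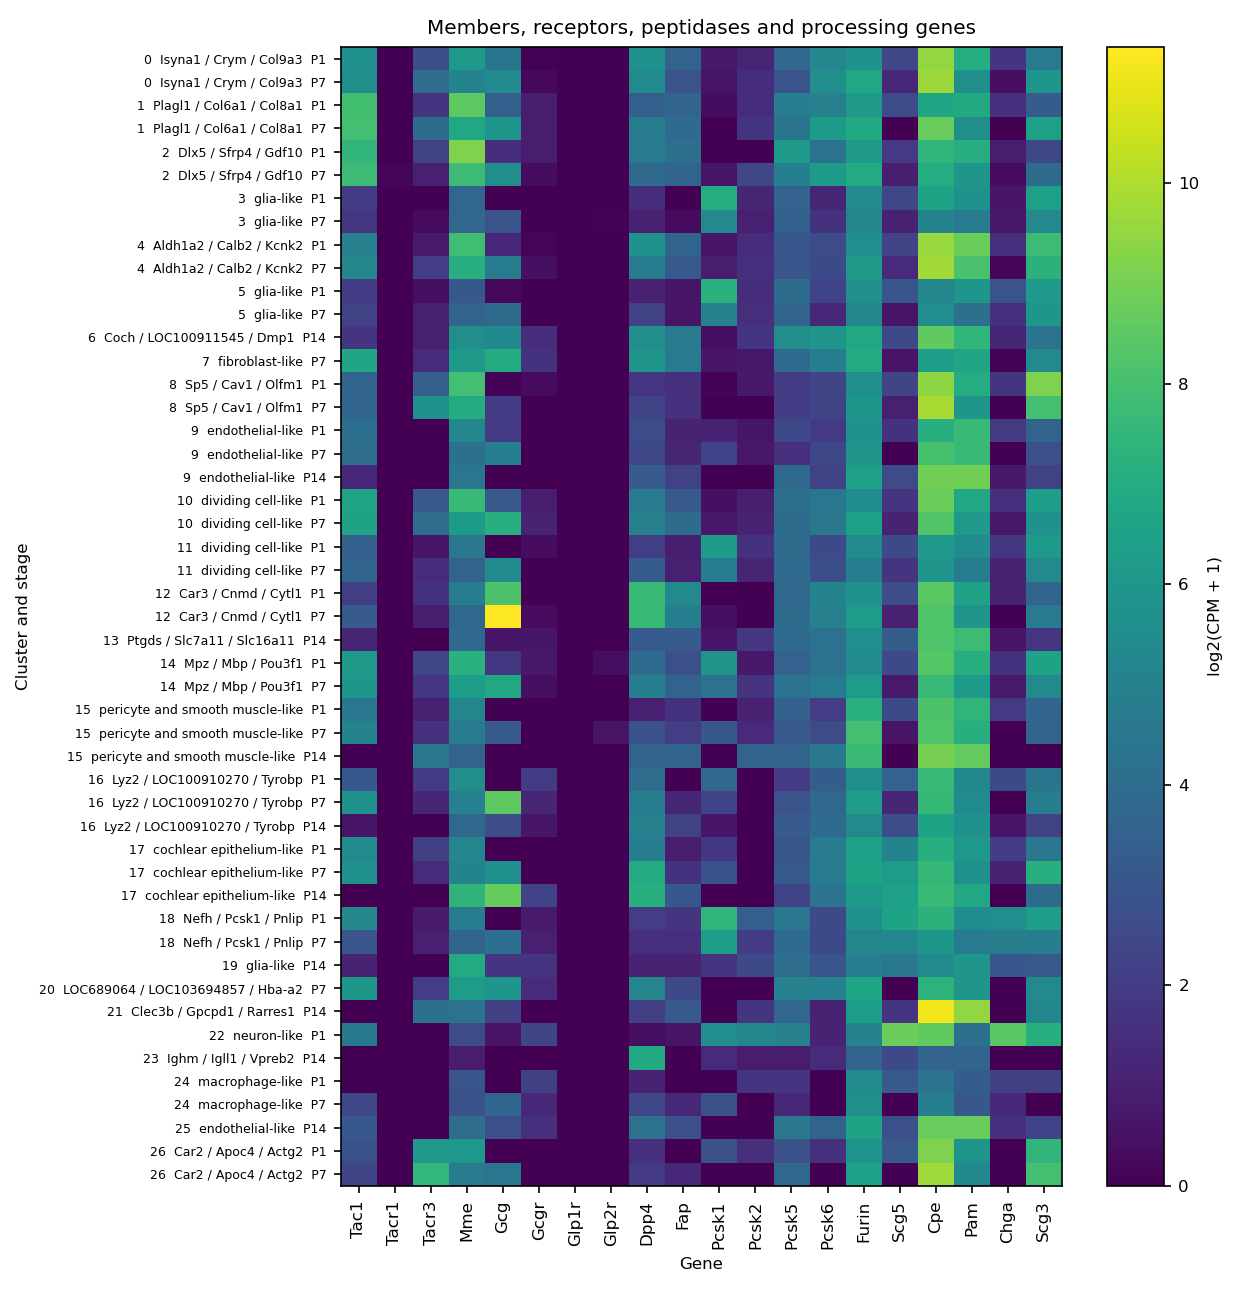
Level as log2(CPM + 1), by colour, of Tac1, Gcg and genes for their receptors, peptidases, processing and granules (columns) in the 49 combinations of cluster and stage (rows). Mme is bright in the rows of clusters 1 and 2 and Dpp4 in those of cluster 12, while Tacr1, Glp1r and Glp2r are dark in every row.

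Among 20 other peptide hormone precursors only Penk, the proenkephalin gene, reached 10 CPM, and it was lower at P7 than at P1 (log2 ratio -1.16, 35.8 CPM at P1 and 10.5 CPM at P7). It was highest in cluster 2 at P1, at 238 CPM (210 to 268), and was at 87.4 CPM in cluster 1 against 15.9 CPM elsewhere. In other units its level did not go with that of Tac1: Penk was at 29.9 CPM (27.4 to 32.5) in cluster 2 at P7, and at 154 CPM in cluster 17 at P14, where Tac1 had 0 UMIs. The value of cluster 17 rested on few cells: its 40 UMIs lay in 3.08% of the 65 cells without Gcg and in none of the 14 with it. Before thinning, Penk was found in 29.3% of Tac1-positive and 18.9% of Tac1-negative cells of cluster 1 at P1, at 117 CPM (110 to 125) and 71.6 CPM (66.3 to 77.1), with median depths of 7206 and 6542.5 UMIs. After thinning, its log2 ratio in positive against negative cells was 1.03 in cluster 1 and 1.00 in cluster 2. Sst had 270 of its 271 UMIs at P1 and was at 7.97 CPM in cluster 1. Ins2 and Iapp, the insulin and amylin genes that pancreatic islets use beside Gcg, had 82 and 2 UMIs. Pthlh was not analysed here.

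Several transcription factors known from the Gcg cells of pancreas and gut were near 0. Pax6 had 6 UMIs in all kept cells, Foxa2 1, Nkx2-2 1 and Foxa1 0, while Gcg had 25908. Isl1 reached 10 CPM, was highest in neuron-like cells at 426 CPM and was at 1.19 CPM in cluster 12.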

How the data were processed

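The authors dissociated pooled cochlear tissue, made 10x Genomics Chromium Single Cell 3′ libraries and mapped them with Cell Ranger to rat genome build rn6. The deposited matrices hold raw UMI counts per gene and barcode, as whole numbers, and were used as they are. The annotation and the rule for calling cells are not given in the sources used here.

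The limits on genes, UMIs and mitochondrial share kept 30641 of 34927 barcodes (87.7%), with medians of 6565 UMIs at P1, 6878 at P7 and 1614 at P14. Log-normalised counts were clustered with Seurat 5.3.0 in R 4.3.3, on 10 principal components of 2000 variable genes less Tac1 and Gcg, at resolution 0.8 and without integration. Clusters were named from 17 marker lists with 126 genes, of which 118 were in the matrices, and a name needed at least 3 detected markers. Doublets were marked with Scrublet through scanpy 1.11.5 and were kept in the values.

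Levels are CPM of summed UMIs with exact Poisson intervals, shares have exact Clopper-Pearson intervals, both at 95%, and 3 counts set the limit for a gene at 0. Log2 ratios have 10 CPM added. Intervals and limits cover counting error only. No test was made, since a stage is 1 library and its cells are no replicates. Positive cells had at least 1 UMI after thinning to 1000 UMIs per cell. Named genes are both members, the pathway lists, the nearest genes on each side in the RefSeq table of a later rat assembly (used for order only), and for each member the 10 genes most alike over clusters and the 10 with the highest ratio in positive cells among genes found in at least 25% of them (for the 5 lowest, 25% of negative cells). Some listed genes are not reported here. The members and the lists were chosen with earlier results of these data known. The steps were tested on simulated data. Alternatives were other limits on cells, doublets left out, other resolutions, the mean of each cell's CPM, 1 CPM added, a 50 CPM filter and no thinning. Python 3.11.15 with numpy 2.4.6, scipy 1.17.1, pandas 2.3.3 and matplotlib 3.10.9 was used.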

Additional observations from a re-analysis of the deposited data

Results flagged for a closer look

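Both genes also had UMIs in barcodes outside the limits on genes and mitochondrial UMIs, which the comparisons of the report did not use (the alternative with no upper limit on genes took in some of them). Tac1 was at 41.1 CPM in the 1289 such barcodes at P1 and at 24.7 CPM in the 1920 at P7, both below its level in kept cells. Gcg was at 0.491 CPM at P1 (8 UMIs), 171 CPM at P7 and 37.9 CPM at P14 (37 UMIs in 1077 barcodes). These levels lay above the limit that a count of 0 allows, which is what marked them.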

How the results depend on the processing

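No paired analysis was possible because each stage has 1 library, and for the same reason no replicate could be left out. No log2 ratio past 2-fold changed sign, but that of Tac1 at P7 against P1, near 0, did. Under the alternatives 33 values moved beyond their counting interval or, for counts, by over 1.5 times, and 17 did not. Tac1 at P7 against P1 (0.04) became 0.14 with a mitochondrial limit of 10% and -0.066 with the mean of each cell's CPM. Gcg at P7 against P1 (3.81) became 3.88 with the 10% limit, 3.92 with no upper limit on genes, 3.31 with the mean of cells and 4.65 with 1 CPM added. Tac1 at P14 against P1 (-2.85) became -3.01 with the 10% limit and -4.79 with 1 CPM added. Gcg at P14 against P7 (-3.19) became -2.55 with the mean of cells and -3.65 with 1 CPM added. Without cluster 12, an alternative chosen after seeing the data, the Gcg ratios were 2.01 (P7 against P1) and -1.18 (P14 against P7), so this cluster carried much of both.

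The highest Tac1 cluster stood 1.97 above all other cells. This became 2.07 at resolution 0.4, where most cells of the highest cluster were not from cluster 1, 1.71 at resolution 1.2, 2.04 with both genes left in the variable genes, 2.22 with the mean of cells and 2.14 with 1 CPM added. For Gcg (5.88) the values were 5.79 at resolution 1.2, 5.82 with both genes left in, 6.17 without cells marked by Scrublet, 5.93 with the mean of cells and 6.24 with 1 CPM added.

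Counts of co-detected genes past 2-fold depended strongly on the settings. For Tac1 (87) the count was 15 without thinning, 827 with at least 2 UMIs, 432 with 1 CPM added and 9 with a 50 CPM filter, and for Gcg (313) it was 36, 485, 963 and 37. The log2 odds of both genes in a cell (-1.06) became -0.22 without thinning, -2.96 with at least 2 UMIs and -3.14 within cluster 12, and the intervals of all 3 included 0. The causes were not tested. The P14 library limits what can be said of low genes there: its limit for a count of 0 is 0.258 CPM, against 0.0306 CPM at P1.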
